A study of Mus musculus with 37 samples.

Results

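Oxidative phosphorylation needs subunits from 2 genomes, and this report follows both gene sets. Nuclear members were all symbols starting with Ndufa, Ndufb, Ndufc, Ndufs or Ndufv and a digit, Sdha to Sdhd, and those starting with Uqcr, Cox4 to Cox8 or Atp5. Mitochondrial members were the 13 protein genes of mitochondrial DNA. In the mouse fibroblast table the rule found 89 nuclear genes, 6 of them pseudogenes, and the 13 mitochondrial genes among 30892 genes. In the rat myocyte table it found 83 nuclear genes and 13 mitochondrial genes among 20158, and in the single cells 85 nuclear identifiers and 13 mitochondrial genes among 31053. The rule also takes in Atp5s, Atp5sl, Cox7a2l and Ndufa4l2, which resemble subunits in name, and leaves out Cyc1 and Ndufab1.

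The respiratory chain passes electrons from NADH and succinate through complexes I to IV to oxygen, and complex V uses the resulting proton gradient to make ATP. Complex II is built from nuclear genes only, whereas the other complexes join nuclear subunits to a few made inside the mitochondrion. Cardiac muscle, which beats without pause, carries muscle forms of some complex IV subunits (Cox6a2, Cox7a1, Cox8b) where other tissues use Cox6a1, Cox7a2 and Cox8a.

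ENPP1 is an ectonucleotidase that cleaves extracellular ATP to AMP. Immortalized C57BL/6 wild-type mouse cardiac fibroblasts (CFs) received medium conditioned by cardiomyocytes that had been given vehicle, ENPP1, ATP, ENPP1+ATP or AMP. CFs were harvested after 24 h or 48 h, with 2 libraries for each medium and time. Neonatal rat ventricular myocytes (NRVMs) from wild-type Sprague-Dawley rats carried the same 5 treatment labels, each a conditioned medium for 24 h, with 3 libraries each. The labels are followed here. The paper describes both myocytes treated directly, to condition the medium, and myocytes given such medium. It is therefore uncertain whether the NRVM values below are responses to medium or to direct treatment. Both cultures had been kept in serum-free DMEM with insulin, transferrin and selenium before the medium was changed. Single nonmyocytes came from the injured hearts of C57BL/6 mice 7 days after myocardial infarction, in 1 control library, labelled wild type, and 1 ENPP1CKO library. ENPP1CKO mice lost floxed Enpp1 alleles through the tamoxifen-induced fibroblast driver Col1a2CreERT. The number of hearts behind each single-cell library is not given in the sources used here. The paper calls its n biological replicates in general. How the cultures behind these libraries were kept apart is not given in the sources used here, so p-values for the bulk libraries measure the spread between these libraries.

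CF libraries held about 32184800 to 115825000 counts, the next highest being 74110900, and NRVM libraries about 13481400 to 16978000. Of the nuclear members, 81 passed the low-count filter in CFs and 77 in NRVMs, and all 13 mitochondrial genes passed in both. Fibroblast markers summed to 7220 to 7625 CPM (counts scaled to a common library size with TMM factors) in CFs given vehicle MCndM (myocyte-conditioned medium) for 24 h, to 3611 to 3707 CPM after ENPP1+ATP MCndM and to 2831 to 3055 CPM after AMP MCndM. At 48 h they summed to 7128 to 7541, 3880 to 4096 and 4077 to 4362 CPM. In CFs the cardiomyocyte markers were low throughout, and summed macrophage markers were 15.8 to 18.3 CPM after vehicle, 34.5 to 42.3 after ENPP1+ATP and 58.7 to 61.8 after AMP at 24 h, and 16.7 to 18.1, 73.1 to 83.9 and 77.9 to 88.5 CPM at 48 h, with 6 of 10 under 1 CPM in each treated group. At 48 h smooth muscle or pericyte markers summed to 215 to 219 CPM with vehicle, 444 to 460 with ENPP1+ATP and 496 to 512 with AMP (6 of 10 under 1 CPM with either treated medium), and endothelial markers to 540 to 553, 848 to 863 and 829 to 836 CPM (8 of 10 under 1 CPM with either). NRVM libraries also carried fibroblast RNA: 9 fibroblast markers summed to 24942 to 26324 CPM under vehicle, 8451 to 8914 under ENPP1+ATP, 11730 to 12525 under AMP and 10552 to 11893 under ATP. The targeted gene Enpp1 stood at 28.9 CPM (473 counts) where Enpp1 was deleted by label and at 130 CPM (1343 counts) in the control, each among fibroblast-like cells, although a tag from the part of the gene that was not deleted would not test the label.

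Regulatory sequence of the nuclear set is shown first. Nuclear respiratory factor 1 (NRF1) is a transcription factor known for binding promoters of respiratory chain genes. RefSeq windows of 300 bases around the start site (GRCm38.p6) matched 66 of the 89 mouse symbols. The NRF1 motif, GCGCA then any base then GCGC, was searched on both strands and stood in the windows of 17 of these 66 genes (25.8%), against 5.19% of 27025 genes with a window. The ETS letters CCGGAAGT were found in 5 members (7.58%; 4.31% of all genes) and the YY1 motif, AA then any base then ATGGC directly followed by GGC, in 4 (6.06%; 1.17%). These matches are descriptions and not binding sites. The stretches of Sdha (complex II flavoprotein) and Cox6a1 (ubiquitous form of a complex IV subunit) with several matches follow, 5′ to 3′ on the gene's strand with the NRF1 letters in capitals. The first lies at chr13:74350241-74350340 and the second at chr5:115349049-115349128, both on the minus strand.
Sdha: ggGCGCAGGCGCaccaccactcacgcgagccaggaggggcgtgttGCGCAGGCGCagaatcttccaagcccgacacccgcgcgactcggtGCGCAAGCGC
Cox6a1: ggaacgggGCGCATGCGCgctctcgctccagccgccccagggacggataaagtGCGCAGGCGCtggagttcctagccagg

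Part of the mouse mitochondrial genome also has a copy in the nucleus, which may bear on how its genes were counted, although this was not tested. On the minus strand of chromosome 1 (GRCm38) the GENCODE annotation lists Gm28661, Gm10925, Gm28437 and Gm10222, which were identical to mt-Co2, mt-Atp6, mt-Co3 and mt-Nd4l over 100% of the aligned bases. Gm28439 was identical to 63.6% of mt-Nd4, and Gm29216 matched 31.8% of mt-Co1 with 98.8% identity. Gm28438 differed from mt-Nd3 by 1 base, T3C counted from the first base of mt-Nd3. The first 90 bases of mt-Nd3 (chrM:9459-9548, plus strand) and Gm28438 (chr1:24613030-24613119, minus strand), and of mt-Co2 (chrM:7013-7102, plus strand) and Gm28661 (chr1:24615476-24615565, minus strand), show how little there is to tell the copies apart, with the differing base in capitals.
mt-Nd3: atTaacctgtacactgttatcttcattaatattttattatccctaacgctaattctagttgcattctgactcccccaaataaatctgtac
Gm28438: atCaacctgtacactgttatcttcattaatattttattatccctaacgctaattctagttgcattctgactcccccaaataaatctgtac
mt-Co2: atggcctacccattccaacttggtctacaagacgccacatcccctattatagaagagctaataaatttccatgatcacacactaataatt
Gm28661: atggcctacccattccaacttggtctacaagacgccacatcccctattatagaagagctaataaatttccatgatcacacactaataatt

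In the CF table the genes copied nearly whole, and mt-Atp8, for which no copy was compared, stood far below the rest of the mitochondrial genome. The partly copied mt-Co1 and mt-Nd4 did not. On the mitochondrial genome mt-Atp8 (chrM:7766-7969) lies between mt-Co2 and mt-Atp6 (chrM:7927-8607), both copied nearly whole, and overlaps mt-Atp6. Whether mt-Atp8 is copied with them was not tested. Per kilobase of exon, the median vehicle level was 4847 CPM for mt-Co1, 3012 for mt-Nd1, 2666 for mt-Cytb, 1955 for mt-Nd2, 1192 for mt-Nd5, 724 for mt-Nd4 and 199 for mt-Nd6. It was 20.7 CPM per kilobase for mt-Co2, 15.2 for mt-Co3, 13.2 for mt-Atp6, 9.13 for mt-Atp8, 7.39 for mt-Nd3 and 5.39 for mt-Nd4l. Single-cell libraries did not show a gap of this kind between mt-Co3 and mt-Co1: in control fibroblast-like cells mt-Co3 was at 5337 CPM and mt-Co1 at 5010 CPM. There mt-Atp6 was at 5777 and mt-Co2 at 2466 CPM, while mt-Nd3, mt-Nd4l and mt-Atp8 were lower, at 288, 224 and 162 CPM. The counts of these 6 low genes in CFs are therefore uncertain, and their changes below are given apart from the other 7. Whether the other 7 were counted in full, mt-Co1 and mt-Nd4 with their partial copies above all, was not tested.

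Nuclear members in CFs fell more often than they rose after 24 h of ENPP1+ATP MCndM. Of 81 tested, 38 were lower and 4 higher than with vehicle (edgeR, adjusted p under 0.05), whereas 25.3% of all genes tested were lower and 23.9% higher (49.1% in all). Their median log2 fold change was -0.15, beside -0.005 over all genes. With AMP MCndM, 33 nuclear members were lower and 8 higher, against 27.5% lower and 25.3% higher among all genes (52.8% in all), and the median was -0.12. Scaled to library totals without TMM factors, the ENPP1+ATP split was 33 lower and 9 higher. No share of all genes is given for that scaling, so this split cannot be set against the shares above. Both comparisons share the vehicle libraries. In bulk RNA, fewer cells of a type and less RNA per cell cannot be told apart, and the lower fibroblast and higher macrophage marker sums given above moved with these groups. Their part in the result was not tested.

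The complexes did not all stand apart from the share of all genes at 24 h. Here and below, members were put in complexes by the start of their symbol alone. In CFs this counted Ndufa4 and Ndufa4l2 in complex I, Cox7a2l in complex IV, and Atp5s, Atp5sl and the pseudogene Atp5l2-ps in complex V. After ENPP1+ATP MCndM, 14 of 37 complex I members were lower and 2 higher. In complex II it was 2 lower and 1 higher of 4, in complex III 4 lower and none higher of 8, in complex IV 8 lower and 1 higher of 14, and in complex V 10 lower and none higher of 18, beside the 25.3% lower and 23.9% higher of all genes. AMP MCndM gave 13 lower and 5 higher in complex I, 2 and 1 in complex II, 2 and 1 in complex III, 6 and 1 in complex IV, and 10 and none in complex V, where 27.5% of all genes were lower and 25.3% higher. The 2 of 8 lower in complex III with AMP are no larger a share than that of all genes, and the 4 genes of complex II are too few to read a share from.

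**Figure D1:**
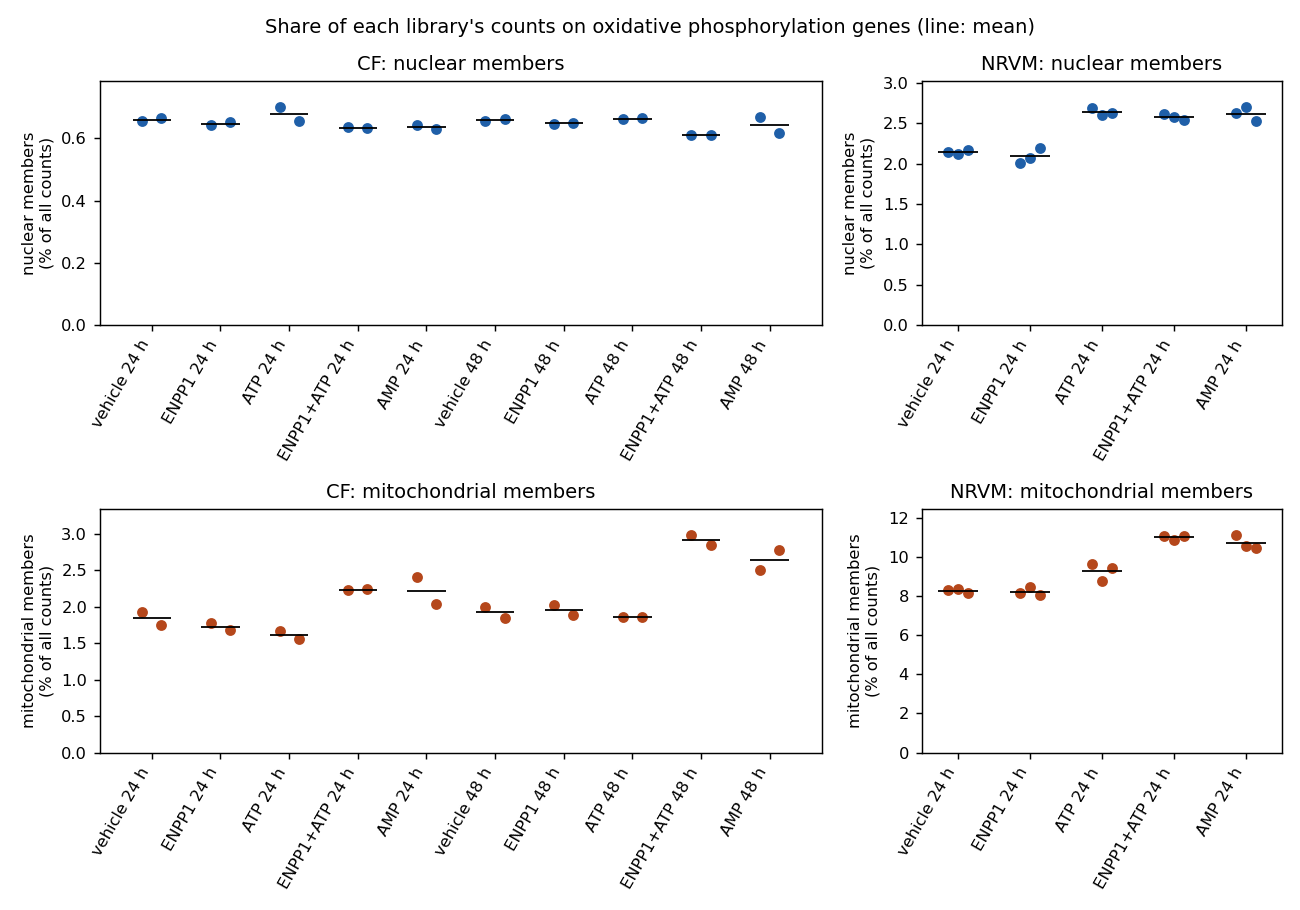
Share of each library's counts (%, vertical axis) on the nuclear members (top) and the mitochondrial members (bottom), by medium and time, in CFs (left) and NRVMs (right); points are libraries and lines group means. In CFs the mitochondrial share reaches 2.84% and 2.98% after ENPP1+ATP at 48 h while the nuclear share is 0.611% and 0.612%, and in NRVMs both shares are higher after ENPP1+ATP than after vehicle.

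Among complex I genes, Ndufs8, which holds iron-sulfur clusters of the arm facing the matrix, gave the largest fall after 24 h of ENPP1+ATP. Its levels were 50.1 and 50.1 CPM with vehicle, 31.7 and 34.4 with ENPP1+ATP and 33.1 and 33.8 with AMP. Both treated pairs lay below vehicle and did not overlap it. The log2 fold change was -0.60 ± 0.07 (SE, n = 2 per group; edgeR adjusted p = 2.4e-07) for ENPP1+ATP and -0.58 ± 0.07 (adjusted p = 2.7e-07) for AMP. Ndufb5, an accessory subunit of the membrane arm, changed by -0.52 ± 0.08 and -0.57 ± 0.08. Against this trend, the accessory subunits Ndufb10 (0.37 ± 0.06 and 0.41 ± 0.06) and Ndufa11 (0.34 ± 0.07 and 0.29 ± 0.07) rose with both media, by edgeR adjusted p from 6.5e-06 to 0.00097.

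Complex II members moved apart from each other. Sdhc, a membrane anchor that holds ubiquinone, was at 63.8 and 64.8 CPM with vehicle at 24 h, 45.4 and 47.3 with ENPP1+ATP and 36.7 and 40.7 with AMP. Its log2 fold changes were -0.47 ± 0.06 (edgeR adjusted p = 7.7e-07) and -0.73 ± 0.06 (adjusted p = 4.8e-10). Sdhb, the iron-sulfur subunit, fell by 0.37 ± 0.08 and by 0.36 ± 0.08 on the log2 scale. Sdha, the flavoprotein, rose: 236 and 238 CPM with vehicle, 293 and 285 with ENPP1+ATP (0.28 ± 0.04, edgeR adjusted p = 4.9e-06), and 255 and 256 with AMP (0.11 ± 0.04, adjusted p = 0.040).

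In complex III, Uqcrq, a small subunit near the ubiquinone site, changed by -0.34 ± 0.07 after ENPP1+ATP and -0.28 ± 0.07 after AMP. The Rieske protein Uqcrfs1, which carries the iron-sulfur cluster of this complex, changed by -0.27 ± 0.07 and -0.30 ± 0.07. Uqcrb rose with AMP (0.27 ± 0.08, edgeR adjusted p = 0.0065) and was at 0.19 ± 0.08 (edgeR adjusted p = 0.054) with ENPP1+ATP, a difference that was not tested. In complex IV the small subunits Cox7b (-0.50 ± 0.09 with each medium) and Cox7c (-0.47 ± 0.07 and -0.53 ± 0.07) showed the largest falls. In complex V the proton-carrying c subunit is encoded by Atp5g1, Atp5g2 and Atp5g3. Atp5g1 was at 68.5 and 71.0 CPM with vehicle, 47.6 and 48.6 with ENPP1+ATP and 46.6 and 51.6 with AMP, a log2 fold change of -0.54 ± 0.06 (edgeR adjusted p = 1.5e-07) and -0.50 ± 0.06. Atp5g2 fell by 0.45 ± 0.05 and by 0.55 ± 0.05 on the log2 scale. Atp5g3 was at -0.12 ± 0.06 (edgeR adjusted p = 0.082) and -0.01 ± 0.06. Atp5e, of the stalk, changed by -0.49 ± 0.11 with ENPP1+ATP, and Atp5j by -0.56 ± 0.05 with AMP.

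**Figure D2:**
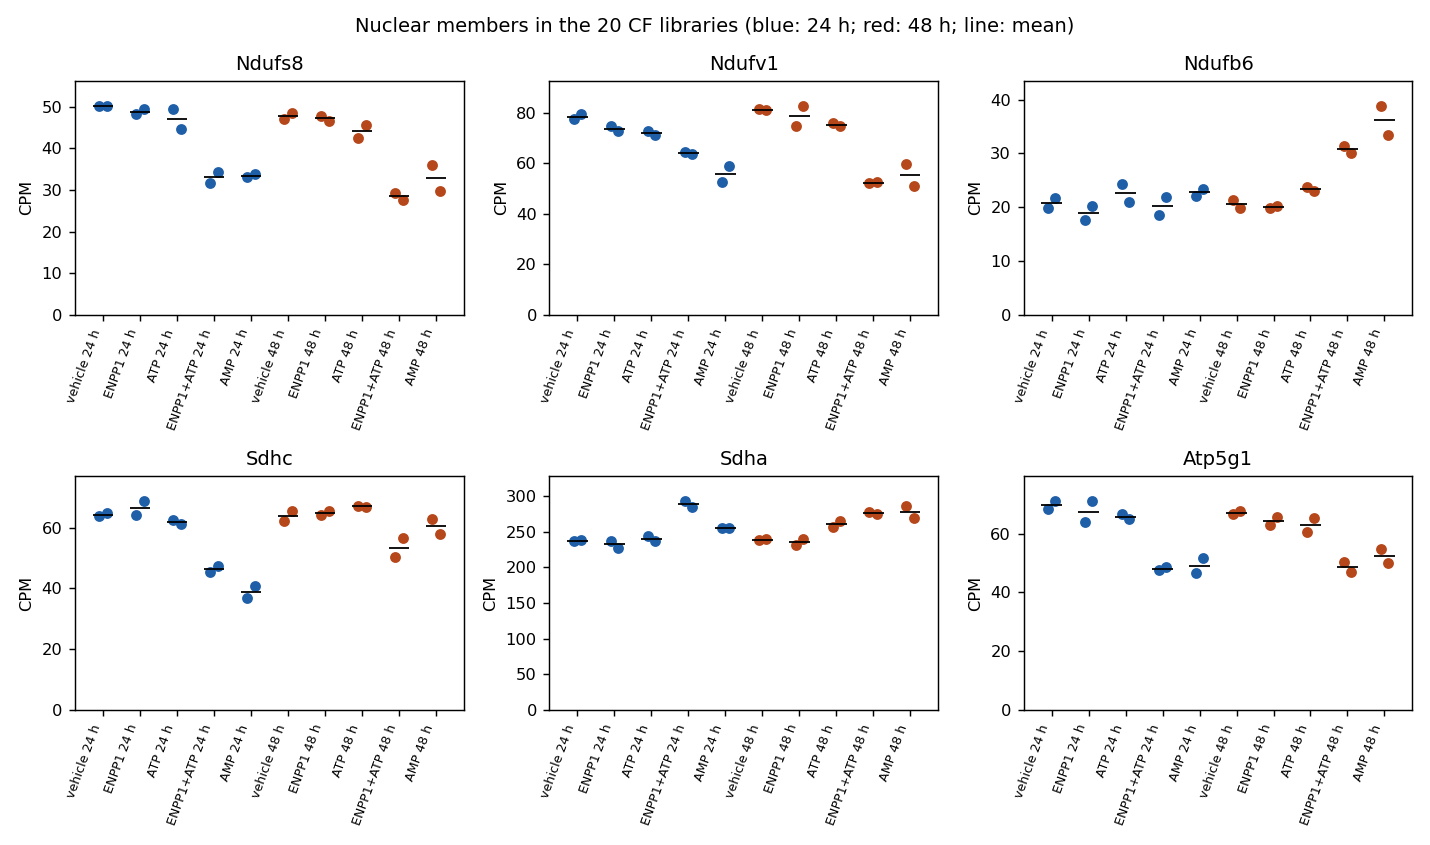
Level of 6 nuclear members (CPM, vertical axis) in the 20 CF libraries by medium and time; points are libraries, blue for 24 h and red for 48 h, and lines are means of 2. Ndufs8, Ndufv1 and Atp5g1 are lower with ENPP1+ATP and AMP at both times, Sdhc is lowest with AMP at 24 h, and Ndufb6 is raised at 48 h.

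After 48 h, with TMM factors, fewer nuclear members were lower and more were higher than after 24 h. ENPP1+ATP MCndM left 21 nuclear members lower and 12 higher (all genes tested: 24.4% lower and 20.8% higher, 45.2% in all; median of members -0.03), so that its 25.9% lower were near the share of all genes, and AMP MCndM left 11 lower and 16 higher (22.9% and 21.1%, 44% in all; median 0.06). Scaled to library totals the splits were 27 lower and 8 higher, and 22 lower and 10 higher. With AMP 19.8% of members were higher, near the 21.1% of all genes, and 13.6% were lower. Rises thus outnumbered falls with TMM factors and not with library totals, for which no share of all genes is given. Under library totals ENPP1+ATP also gave no more rises at 48 h than the 9 at 24 h. The marker sums given above for fibroblasts, smooth muscle or pericytes, endothelium and macrophages differed from vehicle in the same groups, and their part in these counts was not tested. Complex V had 6 of 18 lower and none higher with ENPP1+ATP (median -0.05, against -0.21 at 24 h) and 5 lower and 2 higher with AMP (median 0.03), and complex IV gave 2 lower and 2 higher of 14 with ENPP1+ATP.

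Ndufs8 and Ndufv1 stayed low. Ndufv1 binds NADH and flavin at the entry of complex I. It was at 77.4 and 79.5 CPM with vehicle at 24 h and 81.4 and 80.9 at 48 h. With ENPP1+ATP it was at 64.4 and 63.7 CPM at 24 h and 52.1 and 52.5 at 48 h, and with AMP at 52.7 and 58.7 and at 59.7 and 51.0. All 8 treated libraries lay below the 4 vehicle libraries. At 48 h its log2 fold change was -0.64 ± 0.06 (edgeR adjusted p = 1.2e-08) for ENPP1+ATP and -0.55 ± 0.06 (adjusted p = 1.1e-07) for AMP. Ndufs8 stood at 47.0 and 48.5 CPM with vehicle at 48 h and at 29.3 and 27.6 with ENPP1+ATP, a log2 fold change of -0.75 ± 0.08 (edgeR adjusted p = 1.2e-08), and at 36.0 and 29.7 with AMP (-0.54 ± 0.07). Uqcrfs1 fell by 0.42 ± 0.07 and by 0.35 ± 0.07 on the log2 scale, Atp5g1 by 0.46 ± 0.06 and by 0.36 ± 0.06.

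Ndufb6, an accessory membrane arm subunit, rose at the later time. It was at 21.2 and 19.9 CPM with vehicle, 31.4 and 30.1 with ENPP1+ATP and 38.8 and 33.5 with AMP, while at 24 h the ENPP1+ATP libraries were at 18.6 and 21.9 and the vehicle libraries at 19.9 and 21.8. The 48 h log2 fold changes were 0.58 ± 0.09 (edgeR adjusted p = 1.5e-05) and 0.81 ± 0.09 (adjusted p = 9.5e-08). Ndufa1, another small membrane arm subunit, rose by 0.44 ± 0.10 and 0.55 ± 0.10 on the log2 scale, Uqcrh (the hinge protein of complex III) by 0.31 ± 0.08 and 0.35 ± 0.08, Cox6b1 by 0.24 ± 0.08 and 0.32 ± 0.08, and Sdha by 0.21 ± 0.04 and 0.22 ± 0.04. Sdhc remained lower with ENPP1+ATP (-0.26 ± 0.06) and was at -0.08 ± 0.06 (edgeR adjusted p = 0.35) with AMP.

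The difference between the times was tested directly as an interaction. For ENPP1+ATP, 21 nuclear members had a higher log2 fold change at 48 h than at 24 h and 1 a lower one, Ndufv1 (-0.34 ± 0.09, edgeR adjusted p = 0.0050), with 15.1% and 14.9% of all genes tested called in these directions (30% in all). For AMP, 28 were higher and 1 lower, Ndufb10 (-0.28 ± 0.09, edgeR adjusted p = 0.018), against 17.3% and 14.4% (31.7% in all). In either interaction the total of called members was thus near that of all genes, and the members' calls lay mostly in 1 direction. Their median interaction was 0.12 and 0.18. Without TMM factors, for which no share of all genes is given, the ENPP1+ATP interaction gave 8 higher and 11 lower and the AMP interaction 12 higher and 2 lower. That scaling moved the median over all genes by -0.14 in either interaction, so that the direction of the ENPP1+ATP count depends on it. Leaving out 1 vehicle library at 48 h (replicate 1) reduced the ENPP1+ATP count from 22 to 12, and leaving out ENPP1+ATP 24 h replicate 2 to 14. Called members included Cox8a (0.45 ± 0.08 and 0.40 ± 0.08), Ndufa6 (0.52 ± 0.09 and 0.53 ± 0.09), Ndufa13 (0.38 ± 0.08 and 0.53 ± 0.08) and Sdhc for AMP (0.65 ± 0.09, edgeR adjusted p = 3.0e-06). In vehicle MCndM itself, no nuclear or mitochondrial member passed the edgeR test between 48 h and 24 h (1.68% of all genes higher and 3.2% lower, 4.88% in all), with 6 nuclear and 1 mitochondrial member at an unadjusted p under 0.05 and 0 and 0 called by DESeq2.

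**Figure D3:**
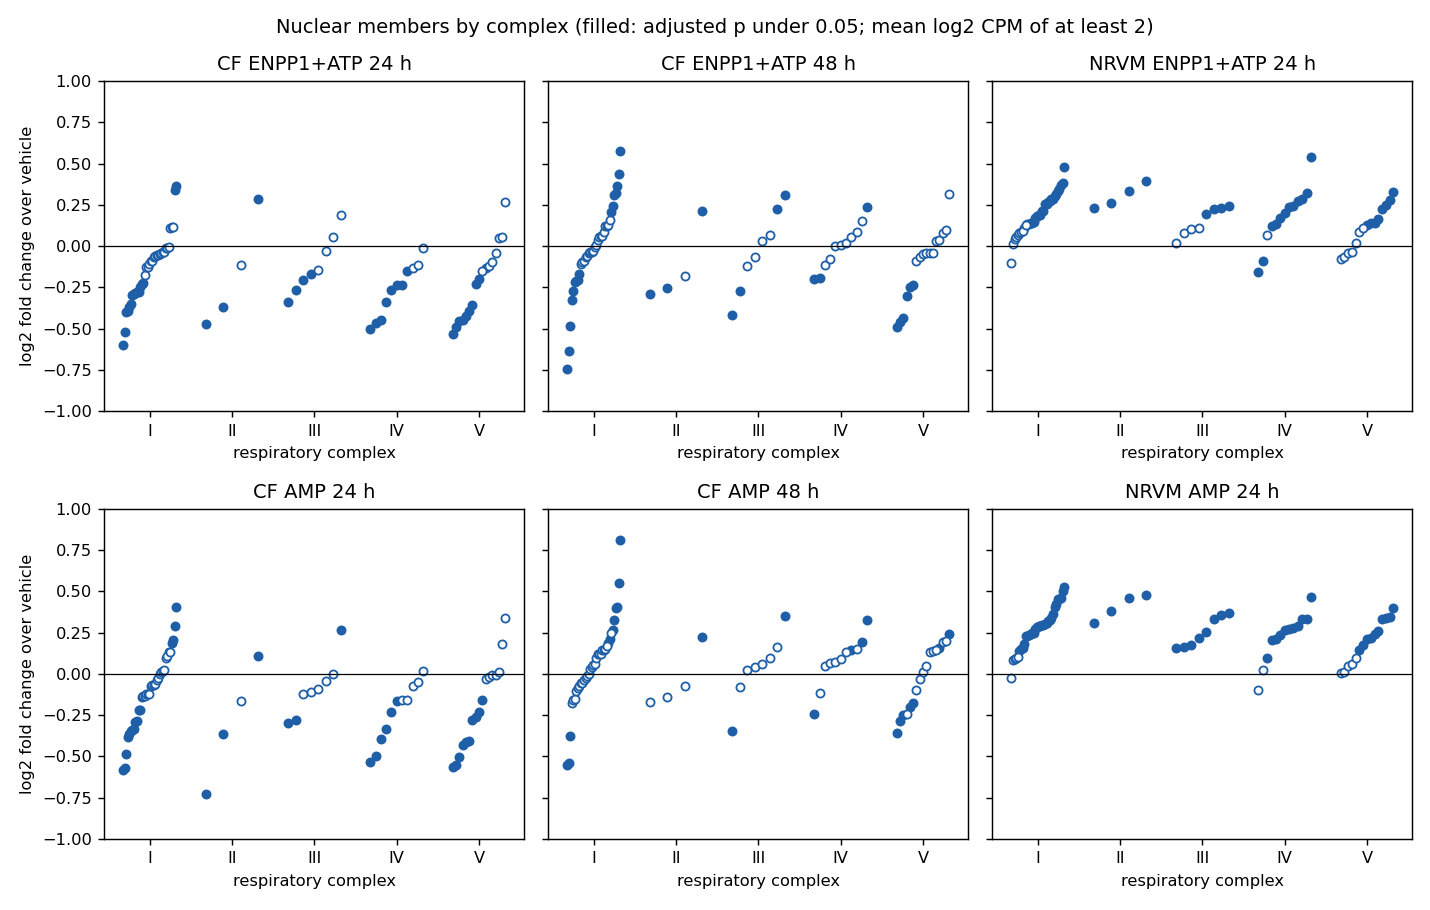
log2 fold change over vehicle (vertical axis) of nuclear members whose mean log2 CPM was 2 or more, sorted within complexes I to V (horizontal axis); filled points passed edgeR's adjusted p under 0.05. In CFs most called points lie below 0 at 24 h, with 38 lower for ENPP1+ATP, and spread to both sides at 48 h, while nearly all called points in NRVMs lie above 0.

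ATP and ENPP1 on their own gave few or no calls among the nuclear members in CFs, and the mitochondrial calls with ATP are given below. With ATP MCndM at 24 h, Ndufs7 was higher (0.18 on the log2 scale) and Ndufb2 lower (-0.55), so 1 and 1 of 81 nuclear members, against 4.77% and 6.32% of all genes (11.1% in all). At 48 h ATP gave 3 higher nuclear members (among them Atp5g2 and Ndufa6, by 0.19 and 0.21) and none lower, against 5.35% and 2.48% (7.83% in all), which came to 1 call without either ATP or either vehicle library of that time, and with library totals. ENPP1 MCndM gave no called member at either time by edgeR and 0 by DESeq2, and 0% of all genes passed. At an unadjusted p under 0.05 there were 6 nuclear members at 24 h, 5 at 48 h and no mitochondrial one. Of the 81 nuclear log2 fold changes with ENPP1, 64 lay below 0 at 24 h (median -0.046) and 71 at 48 h (median -0.049). The 48 h median with ENPP1+ATP was -0.033. Set against ATP MCndM, ENPP1+ATP lowered 43 and raised 4 nuclear members at 24 h (22.1% and 21.8% of all genes, 43.9% together), and lowered 24 and raised 9 at 48 h (21.3% and 18.2%, 39.5% together). The 24 h total of 47 dropped to 31 without ATP 24 h replicate 1.

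The mitochondrial set took another course in CFs. It held 1.92% and 1.75% of counts with vehicle at 24 h and 2.23% and 2.24% with ENPP1+ATP, and at 48 h 1.99% and 1.85% with vehicle, 2.98% and 2.84% with ENPP1+ATP and 2.499% and 2.78% with AMP. The nuclear set held 0.656% and 0.665% with vehicle at 24 h, 0.638% and 0.632% with ENPP1+ATP, and at 48 h 0.657% and 0.664%, 0.611% and 0.612%, and with AMP 0.670% and 0.617%. The ENPP1+ATP groups thus lay above vehicle for the mitochondrial share and below it for the nuclear share at both times. The lower nuclear share was not particular to them. With ENPP1 alone it was 0.643% and 0.651% at 24 h and 0.647% and 0.651% at 48 h, also below both vehicle libraries. The mitochondrial share with ENPP1 alone, 1.77% and 1.68% at 24 h and 2.03% and 1.88% at 48 h, overlapped vehicle. These shares are sums over members and carry no test.

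Of the other 7 mitochondrial genes, mt-Co1, the catalytic subunit of complex IV, was at 7863 and 7306 CPM with vehicle and 9248 and 9415 with ENPP1+ATP at 24 h (log2 fold change 0.30 ± 0.06, edgeR adjusted p = 0.00031). At 48 h it was at 7672 and 7207 CPM and at 10977 and 10854 (0.55 ± 0.06, edgeR adjusted p = 8.3e-08). mt-Nd1 and mt-Nd2, which encode membrane arm subunits of complex I, rose by 0.43 ± 0.10 and 0.26 ± 0.10 at 24 h and by 0.82 ± 0.10 and 0.77 ± 0.10 at 48 h. mt-Cytb, the cytochrome b of complex III, was at 3147 and 2855 CPM with vehicle and 2720 and 2795 with ENPP1+ATP at 24 h (-0.12 ± 0.07, edgeR adjusted p = 0.18). At 48 h it reached 5073 and 4912 CPM with ENPP1+ATP against 3211 and 2954 (0.70 ± 0.07, edgeR adjusted p = 4.0e-08), and its interaction between the times was 0.82 ± 0.10 (adjusted p = 1.8e-06). mt-Nd4 and mt-Nd5 followed it, with 0.66 ± 0.07 and 0.77 ± 0.08 at 48 h. AMP gave 0.42 ± 0.06 for mt-Co1 and 0.61 ± 0.07 for mt-Cytb at 48 h.

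mt-Nd6 went the other way. It is the only protein gene of the light strand and encodes another membrane subunit of complex I. Its levels at 48 h were 98.5 and 108 CPM with vehicle, 42.6 and 49.4 with ENPP1+ATP and 44.5 and 46.0 with AMP, and the groups did not overlap. The log2 fold changes were -1.17 ± 0.27 (edgeR adjusted p = 0.0045) and -1.19 ± 0.27 (adjusted p = 0.0041). At 24 h it was at -0.53 ± 0.26 (edgeR adjusted p = 0.12) with ENPP1+ATP and -0.75 ± 0.26 (adjusted p = 0.032) with AMP. Whether the counting used strand is not given in the sources used here, so reads of mt-Nd6 and of the opposite strand cannot be told apart.

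Among the 6 uncertain genes, mt-Atp8 was at 1.54 and 2.31 CPM with vehicle and 0.220 and 0.611 with ENPP1+ATP at 24 h, and mt-Nd3 at 2.55 and 3.77 and at 0.759 and 1.15. They changed by -2.17 ± 0.39 and -1.70 ± 0.34, and mt-Co3, mt-Atp6 and mt-Nd4l by -0.89 ± 0.22, -0.75 ± 0.26 and -0.88 ± 0.34. These are the 5 called falls among 8 mitochondrial calls for ENPP1+ATP at 24 h (3 higher; 38.5% and 23.1% of the 13, beside 25.3% and 23.9% of all genes), a count that came to 5 without ENPP1+ATP replicate 1 or without vehicle replicate 2. AMP at 24 h gave 3 higher and 4 lower (23.1% and 30.8%), near the 25.3% and 27.5% of all genes, and 3 in all without vehicle replicate 2 (0 higher). At 48 h either medium gave 6 higher and 3 lower (46.2% and 23.1%), beside 20.8% and 24.4% of all genes with ENPP1+ATP and 21.1% and 22.9% with AMP. Mitochondrial ribosomal RNA, no member of the set, took 0.400% and 0.531% of counts with vehicle at 24 h, 0.559% and 1.10% with ENPP1+ATP, and 1.47% and 0.426% with AMP. At 48 h it took 0.259% and 0.295% with vehicle, 2.32% and 2.52% with ENPP1+ATP and 1.98% and 1.56% with AMP, and its part in the mitochondrial shares was not tested. In ATP MCndM at 24 h, mt-Cytb (-0.44 ± 0.07), mt-Nd4 (-0.28 ± 0.07) and mt-Nd5 (-0.28 ± 0.08) were lower. These 3 calls (23.1% of the 13, beside 6.32% of all genes lower and 4.77% higher) shrank to 1 without either ATP library or without vehicle replicate 1. All 13 log2 fold changes lay below 0 there. Fibroblast markers summed to 5235 to 5571 CPM with ATP and 7220 to 7625 with vehicle. Smooth muscle or pericyte markers summed to 122 to 126 and 188 to 197 CPM. The part of these differences was not tested.

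In NRVMs both sets rose. After ENPP1+ATP, 51 of 77 nuclear members were higher and 2 lower, and 10 of 13 mitochondrial genes higher and none lower (28.6% and 27.4% of all genes tested, 56% together). After AMP, 62 nuclear members were higher and none lower, and 10 mitochondrial genes higher and none lower (29.2% and 28%, 57.2% together). The median log2 fold change of nuclear members was 0.17 and 0.26, and of mitochondrial genes 0.25 and 0.34. Nuclear shares of counts were 2.15%, 2.12% and 2.17% with vehicle, 2.61%, 2.58% and 2.54% with ENPP1+ATP and 2.63%, 2.70% and 2.53% with AMP. Mitochondrial shares were 8.29%, 8.35% and 8.14%, then 11.1%, 10.9% and 11.1%, then 11.1%, 10.5% and 10.5%. None of these treated groups overlapped vehicle. The fibroblast marker sum given above was lower in the same groups, while summed cardiomyocyte markers were 39987 to 42225 CPM with vehicle, 34817 to 36616 with ENPP1+ATP and 40087 to 43440 with AMP. The part of the cell mixture in the result was not tested.

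By complex, ENPP1+ATP raised 25 of 35 members of complex I, 4 of 4 of complex II, 4 of 8 of complex III, 10 of 15 of complex IV and 8 of 15 of complex V, and lowered 2, both in complex IV, although neither passed the test under library totals (59 higher and none lower). AMP raised 29, 4, 8, 11 and 10 of them and lowered none. The counts with TMM factors stand beside the shares of all genes given in the paragraph before, and no such share is given for library totals. In complex I, Ndufa8 was at 124, 120 and 117 CPM with vehicle, 171, 168 and 165 with ENPP1+ATP and 172, 183 and 167 with AMP. It rose by 0.48 ± 0.05 and 0.53 ± 0.05 on the log2 scale (n = 3 per group; edgeR adjusted p = 7.8e-12 and 4.7e-13). Ndufc1, an accessory subunit like Ndufa8, rose by 0.38 ± 0.06 and 0.50 ± 0.06.

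Complex II rose as a whole: Sdha was at 555, 526 and 534 CPM with vehicle, 698, 665 and 674 with ENPP1+ATP and 762, 768 and 693 with AMP. That is 0.33 ± 0.04 (edgeR adjusted p = 2.0e-09) and 0.46 ± 0.04 (adjusted p = 3.1e-13) on the log2 scale. Sdhd, a membrane anchor, rose by 0.39 ± 0.04 and 0.48 ± 0.04, and Sdhc, which fell in CFs, by 0.26 ± 0.04 and 0.38 ± 0.04. In complex III, Uqcrfs1 rose by 0.24 ± 0.07 and 0.37 ± 0.07 and Uqcr11 by 0.23 ± 0.05 and 0.36 ± 0.05. In complex V, Atp5f1b, the catalytic beta subunit, was at 3527, 3460 and 3503 CPM with vehicle, 4449, 4362 and 4329 with ENPP1+ATP and 4672, 4783 and 4350 with AMP, a rise of 0.32 ± 0.04 and 0.40 ± 0.04.

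Of the complex IV isoforms in NRVMs, the muscle form of the Cox6a pair rose and the ubiquitous form did not. Cox6a2, the muscle form, was at 555, 545 and 557 CPM with vehicle, 820, 792 and 792 with ENPP1+ATP, 762, 790 and 732 with AMP and 798, 775 and 829 with ATP. Its log2 fold changes were 0.54 ± 0.04 (edgeR adjusted p = 1.7e-15), 0.46 ± 0.04 and 0.54 ± 0.04. Its ubiquitous counterpart Cox6a1 was at 443, 443 and 464 CPM with vehicle and 427, 428 and 412 with ENPP1+ATP (-0.09 ± 0.04, edgeR adjusted p = 0.042), 459, 458 and 455 with AMP (0.02 ± 0.04, adjusted p = 0.64) and 392, 391 and 391 with ATP (-0.20 ± 0.04). Cox8b, a muscle form, rose by 0.32 ± 0.08, 0.33 ± 0.08 and 0.22 ± 0.08 with ENPP1+ATP, AMP and ATP, and Cox8a, its ubiquitous counterpart, by 0.27 ± 0.04, 0.27 ± 0.04 and 0.31 ± 0.04. The difference between isoforms was not tested for either pair. Cox7a1, the muscle form of a further pair, was at 0 to 0.452 CPM and did not pass the low-count filter. Cox4i1 rose by 0.24 ± 0.04 and 0.29 ± 0.04 with ENPP1+ATP and AMP, whereas Cox4i2, the form known from lung and hypoxic cells, was at 0.582 to 1.90 CPM in the vehicle and ENPP1+ATP libraries, with no call. Cox7a2l, which links complexes into supercomplexes, fell with ENPP1+ATP (-0.16 ± 0.05, edgeR adjusted p = 0.0043). Of the c subunit genes, Atp5mc1 (0.14 ± 0.05) and Atp5mc3 (0.13 ± 0.04) rose with ENPP1+ATP and Atp5mc2 was at -0.04 ± 0.04.

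In CFs the muscle forms were scarce. Cox6a2 was at 1.59 to 4.52 CPM over all 20 libraries, and its fall with AMP at 48 h (-0.71 ± 0.26, edgeR adjusted p = 0.030) was the only call for it among the 4 comparisons with ENPP1+ATP or AMP. Cox6a1 was steady at 205 to 234 CPM, with log2 fold changes from -0.01 to 0.06 and no call. Cox6b2, known from testis, was at 0.0736 and 0.146 CPM with vehicle at 48 h, 0.964 and 0.947 with ENPP1+ATP and 1.80 and 1.54 with AMP, a handful of counts. The vehicle libraries alone would not have passed the low-count filter, so its being counted as higher, as the 1 higher complex IV member at 24 h and among the rises at 48 h, is no support for a change, and no fold change is given. Cox4i2 and Cox8b did not pass the low-count filter. Ndufa4 fell by 0.35 ± 0.06 and by 0.36 ± 0.06 at 24 h, and Cox8a by 0.45 ± 0.06 and by 0.33 ± 0.06.

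The NRVM changes varied between genes of the mitochondrial genome. With ENPP1+ATP the genes nearest the start of the heavy strand transcript rose most: Mt-nd1 from 7047, 6981 and 6977 CPM to 10875, 10464 and 10345 (0.59 ± 0.04, edgeR adjusted p = 5.1e-18), Mt-nd2 by 0.49 ± 0.04 and Mt-co1 by 0.46 ± 0.04. Mt-co2 rose by 0.32 ± 0.06, Mt-atp6 by 0.21 ± 0.04, Mt-co3 by 0.15 ± 0.04 and Mt-nd5 by 0.25 ± 0.04. Mt-cyb, the last gene, was at 7943, 7968 and 7785 CPM with vehicle and 7886, 8011 and 7542 with ENPP1+ATP (-0.02 ± 0.04, edgeR adjusted p = 0.75). The rise of Mt-nd6 was 0.33 ± 0.12 (edgeR adjusted p = 0.036) with ENPP1+ATP and 0.54 ± 0.12 with AMP, where CFs had shown a fall at 48 h.

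ATP split the set in NRVMs. Mt-nd1 was at 9007, 8517 and 9164 CPM with ATP (0.35 ± 0.04), Mt-co1 at 0.35 ± 0.04 and Mt-nd2 at 0.13 ± 0.04 above vehicle, but Mt-cyb was at 6027, 5563 and 5806 (-0.45 ± 0.04, edgeR adjusted p = 1.7e-13), Mt-atp6 at -0.33 ± 0.04, Mt-co3 at -0.33 ± 0.04, and Mt-co2, Mt-nd3 and Mt-nd4 at -0.21 to -0.23. That gives 3 higher and 6 lower, or 4 higher and 3 lower under library totals, a scaling that moved the median of all genes by 0.11. The nuclear set did not share this split: 45 members were higher and 4 lower with ATP (30.2% and 29.7% of all genes, 59.9% together), 62 and 3 under library totals. The 4 lower ones were Atp5f1d, Ndufs8, Cox6a1 and Cox7a2l. ATP also had the lowest summed cardiomyocyte markers, 23289 to 25105 CPM. Compared with ATP, ENPP1+ATP raised 11 mitochondrial genes and lowered none, with a median of 0.43, and raised 14 and lowered 2 of 77 nuclear members with a median of 0.02 (14.1% and 13.5% of all genes, 27.5% together). Under library totals the nuclear split was 9 higher and 11 lower, and without ATP replicate 2 the 16 calls dropped to 9. No share of all genes is given for library totals here. ENPP1 alone changed none of the members by edgeR or DESeq2 (0% of all genes passed), with 2 nuclear and 0 mitochondrial genes at an unadjusted p under 0.05. Mt-atp8 overlaps Mt-atp6, and Mt-nd4l overlaps Mt-nd4, so the way reads were shared between them is uncertain. Mt-atp8 ranged from 81.6 to 658 CPM over the 15 libraries and gave no call.

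**Figure D4:**
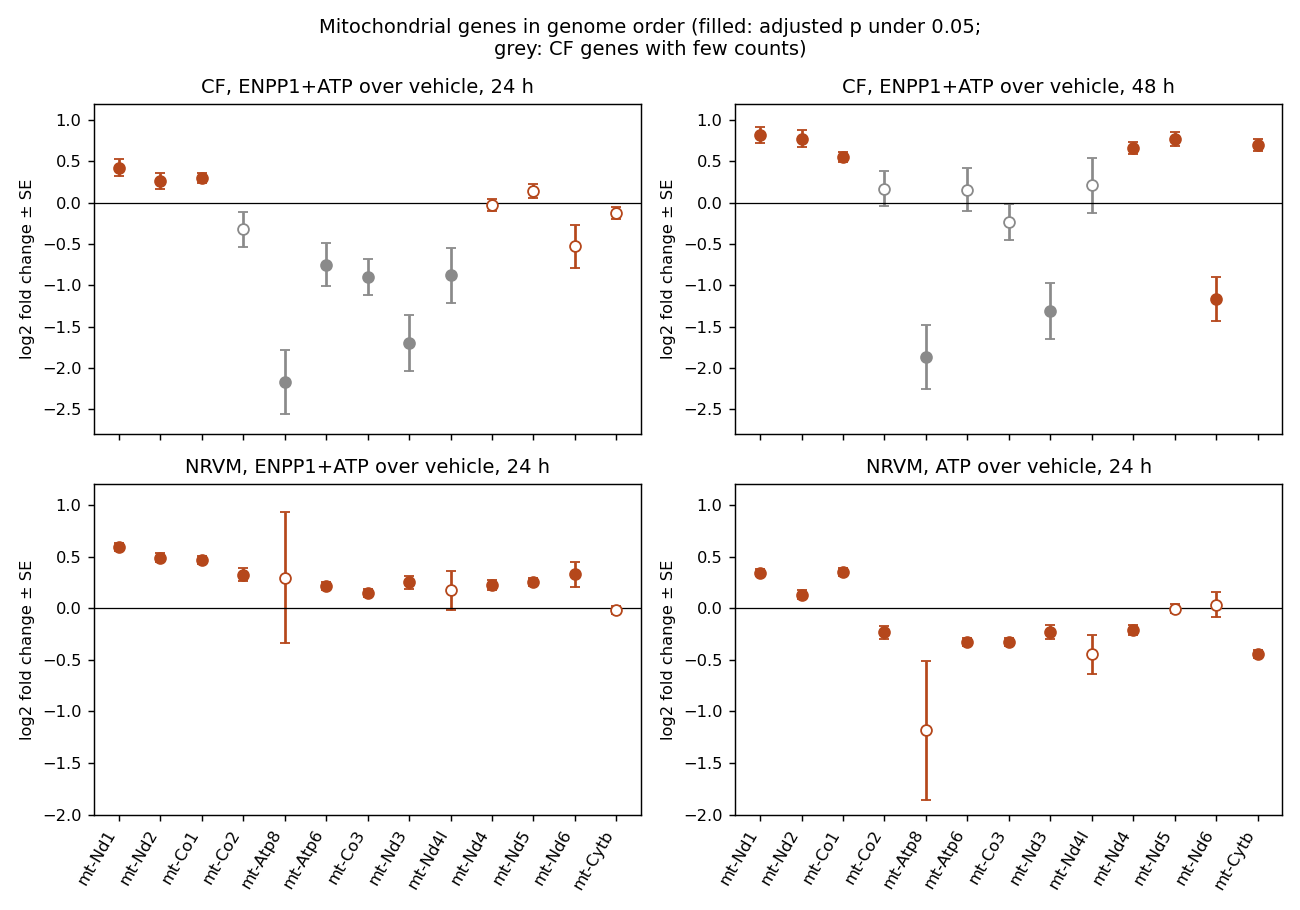
log2 fold change over vehicle ± SE (vertical axis) of the 13 mitochondrial genes in genome order (horizontal axis, mouse names; rat mt-Cytb is Mt-cyb), for ENPP1+ATP in CFs at 24 h and 48 h and for ENPP1+ATP and ATP in NRVMs; filled points passed edgeR's adjusted p under 0.05 and grey marks the 6 uncertain CF genes. In NRVMs given ATP, the first 3 genes lie above 0 and most later ones below, and in CFs at 48 h mt-Nd6 lies at -1.17 while its neighbours mt-Nd5 and mt-Cytb lie at 0.77 and 0.70.

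Other genes of the pathway were read from lists fixed with the members. In CFs after 24 h of ENPP1+ATP, assembly factors of the complexes had 17 of 49 lower and 7 higher, proteins of the mitochondrial ribosome 36 of 79 lower and 8 higher, and genes that copy and express mitochondrial DNA 11 of 30 lower and 5 higher. Tricarboxylic acid cycle enzymes had 5 of 16 lower and 3 higher, and electron carriers and enzymes that feed ubiquinone 6 and 6 of 21. Among all genes 25.3% were lower and 23.9% higher, and the counts of the tricarboxylic acid cycle and of the electron carriers were near these shares. In NRVMs the same lists after ENPP1+ATP gave 25 of 45 higher and none lower, 47 of 72 higher and 3 lower, 16 of 28 higher and 1 lower, 12 of 15 higher and 1 lower, and 11 of 21 higher and 3 lower, beside 28.6% of all genes higher and 27.4% lower.

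Among named genes of these lists in CFs, Cox16, an assembly factor of complex IV, changed by -1.70 ± 0.29 (edgeR adjusted p = 2.6e-05), Ndufaf3, an assembly factor of complex I, by -0.81 ± 0.12, and Lyrm7, an assembly factor of complex III, by 0.81 ± 0.24. Suclg2, a subunit of succinyl-CoA ligase, fell by 0.62 ± 0.06 on the log2 scale. Dhodh, which makes orotate for pyrimidine synthesis and passes electrons to ubiquinone, fell by 0.53 ± 0.12 with ENPP1+ATP and by 0.61 ± 0.12 with AMP at 24 h, and by 0.39 ± 0.13 and by 0.50 ± 0.13 at 48 h. Cyc1, cytochrome c1 of complex III, fell by 0.25 ± 0.05 at 24 h and by 0.58 ± 0.05 at 48 h with ENPP1+ATP (edgeR adjusted p = 0.00030 and 1.7e-09). Cycs, cytochrome c, was at 0.02 ± 0.07 and 0.08 ± 0.07.

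Regulators of mitochondrial genes were read in both cultures, without a test between them. Of the 11 listed, 2 were higher and 5 lower in CFs after 24 h of ENPP1+ATP, and 3 higher and 4 lower with AMP. In NRVMs 6 were higher and 4 lower with ENPP1+ATP, and 2 higher and 4 lower with AMP. Among all genes in CFs, 23.9% were higher and 25.3% lower with ENPP1+ATP, and 25.3% and 27.5% with AMP. In NRVMs these shares were 28.6% and 27.4% with ENPP1+ATP, and 29.2% and 28% with AMP. The 11 genes are too few to read a share from. Ppargc1a and Ppargc1b, coactivators of mitochondrial genes, fell in CFs by 1.02 ± 0.17 and by 1.11 ± 0.26 on the log2 scale at 24 h of ENPP1+ATP, and Ppargc1a by 1.30 ± 0.17 with AMP. In NRVMs Ppargc1a rose, by 0.62 ± 0.06 with ENPP1+ATP (edgeR adjusted p = 3.5e-12) and 0.69 ± 0.06 with AMP, as did Esrra, a nuclear receptor partner of it, by 0.54 ± 0.05 and 0.59 ± 0.05. In CFs Esrra rose by 0.22 ± 0.08 and by 0.45 ± 0.08 at 24 h. Tfam, which packages and transcribes mitochondrial DNA, was at -0.10 ± 0.06 in CFs with either medium at 24 h and at 0.04 ± 0.06 in NRVMs, with no call. Polrmt, the mitochondrial RNA polymerase, rose in NRVMs (0.32 ± 0.07 and 0.27 ± 0.07) and was at 0.07 ± 0.06 in CFs at 24 h. Nrf1, whose letters were shown in the promoters, was at -0.02 ± 0.08 in CFs at 24 h of ENPP1+ATP and fell by 0.21 ± 0.08 in NRVMs. Gabpa, an ETS factor, rose by 0.18 ± 0.06 in CFs at 24 h and was at -0.11 ± 0.06 in NRVMs.

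Single nonmyocytes gave the levels of both sets in vivo, as shares of unique molecular identifier (UMI) counts. Each genotype had 1 library, so there is no test, and the limits given are exact 95% limits for counting error only. Clusters were named from markers without using the members: 7262 ENPP1CKO and 5237 control cells were kept, and 67 barcodes occurred in both libraries. In the control library the nuclear set took 3.36% of counts in smooth muscle or pericyte-like cells, 3.21% in endothelial-like, 2.74% in T or NK cell-like, 2.48% in fibroblast-like, 2.39% in macrophage-like, 1.98% in B cell-like and 1.77% in neutrophil-like cells. The first 5 kept this order in the ENPP1CKO library, where T or NK cell-like and fibroblast-like cells were close, at 2.49% and 2.43%, and B cell-like cells came last at 1.47%. The mitochondrial set ranged from 1.32% in neutrophil-like to 3.05% in B cell-like cells in the control library, and from 1.90% in B cell-like to 4.79% in smooth muscle or pericyte-like cells in the ENPP1CKO library. An unnamed cluster of 35 and 12 cells led by the cardiomyocyte genes Actc1, Mb and Myl3 held 10.9% and 13.2% nuclear but 1.80% and 1.14% mitochondrial counts, and its Cox6a2 level was 2356 and 1948 CPM.

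**Figure D5:**
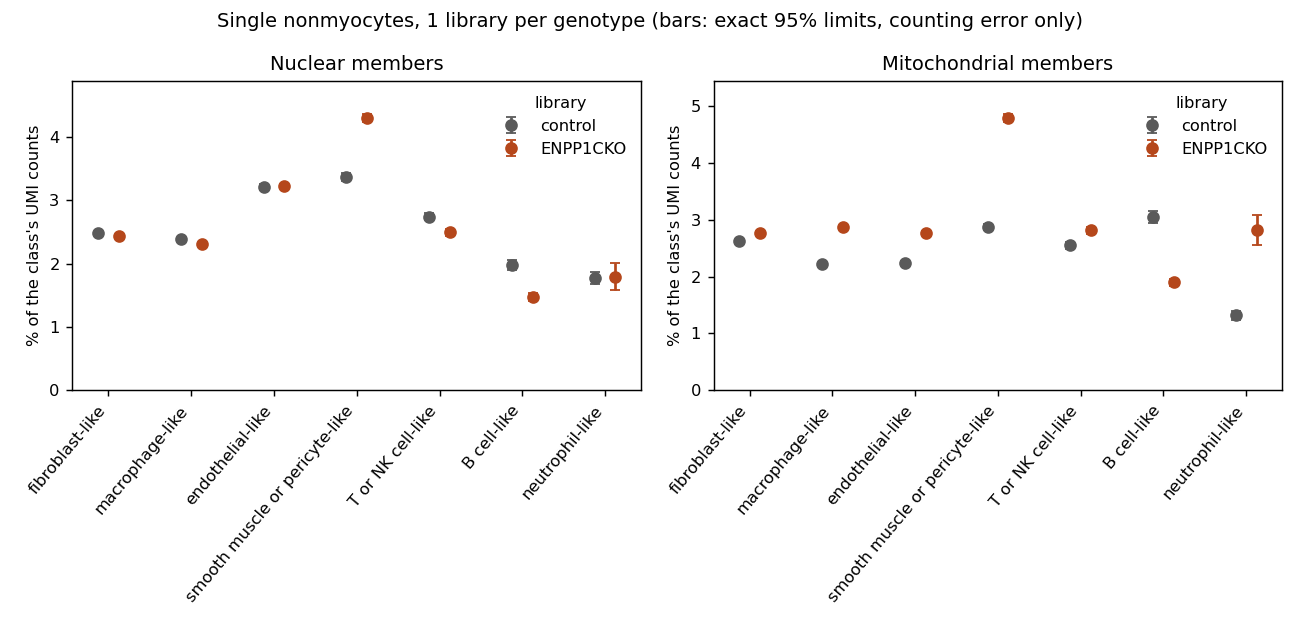
Share of UMI counts (%, vertical axis) on nuclear (left) and mitochondrial (right) members by marker-named class (horizontal axis) in the control and ENPP1CKO libraries, with exact 95% limits for counting error only. The nuclear set is highest in smooth muscle or pericyte-like cells in both libraries, at 3.36% in control and 4.29% in ENPP1CKO, and the mitochondrial set is higher in ENPP1CKO in every class drawn but B cell-like cells.

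Between the libraries the mitochondrial set differed more than the nuclear set in several classes. In macrophage-like cells it was at 2.88% in ENPP1CKO and 2.22% in control, a log2 ratio of 0.38 (0.37 to 0.38), beside -0.05 (-0.06 to -0.04) for the nuclear set. The difference was seen in each macrophage-like cluster: 2.96% against 1.96%, 2.77% against 2.12%, 3.25% against 2.86% and 2.49% against 2.00%. Fibroblast-like clusters were not all alike, with 2.68% against 2.74% in cluster 0, 2.87% against 2.57% in cluster 2 and 3.04% against 2.71% in cluster 3. In endothelial-like cells the mitochondrial log2 ratio was 0.31 (0.28 to 0.33) and the nuclear one 0.01 (-0.01 to 0.03), although the smaller of the clusters in this class had 2.28% against 2.47% mitochondrial counts. In fibroblast-like cells the ratios were 0.07 and -0.03, and in T or NK cell-like cells 0.14 and -0.14. Smooth muscle or pericyte-like cells, 155 and 70 of them, gave 0.74 (0.70 to 0.77) and 0.35 (0.32 to 0.39). B cell-like cells, 29 and 83, were at -0.68 and -0.43, but there the median log2 ratio over the 135 genes compared was -1.03 and 80.7% of them were past -0.5, so the members stood no lower than genes in general. Neutrophil-like cells, 16 and 97, gave 1.09 and 0.02. Median counts per cell differed for some classes, 1489 and 2649 in endothelial-like and 2001 and 4035 in smooth muscle or pericyte-like cells, and cardiomyocyte markers were higher in ENPP1CKO in 5 of the 7 classes, at 33.4 against 10.6 CPM in macrophage-like, 55.7 against 16.9 in endothelial-like and 94.5 against 57.4 in smooth muscle or pericyte-like cells. They were at 6.34 against 9.12 CPM in B cell-like and 0 against 12.3 CPM in neutrophil-like cells. Their part in the ratios was not tested. In an alternative run, cells under 1000 counts (504 ENPP1CKO and 423 control) were left out and the rest thinned to 1000 counts. The mitochondrial ratios were then 0.35 in macrophage-like, 0.24 in endothelial-like and 0.62 in smooth muscle or pericyte-like cells. Loss of shallow cells and change of depth cannot be told apart in these values. In fibroblast-like cells thinning left 0.016 for the mitochondrial and 0.012 for the nuclear set, the latter opposite in sign to the ratio before thinning. In neutrophil-like cells it gave 0.67 and -0.61, but their median counts were 861 and 694, so many of these few cells were left out.

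Single members were compared where the libraries together held at least 200 counts, with a log2 ratio of 0.5 in size as the mark. In macrophage-like cells 4 of 12 mitochondrial genes and none of 75 nuclear members were past it upward, none downward, where 2.09% of all genes were past it upward and 11.3% downward. The 4 were mt-Nd4l (0.71), mt-Cytb (0.63, 2330 against 1502 CPM), mt-Nd5 (0.55) and mt-Atp6 (0.51), while mt-Co1 was at 0.04 (5121 against 4992 CPM). In smooth muscle or pericyte-like cells 10 of 11 mitochondrial genes and 12 of 56 nuclear members were past it upward and none downward (11.7% and 13.2% of all genes). Fibroblast-like cells had 2 of 78 nuclear members and 1 of 13 mitochondrial genes, mt-Atp8 (-0.63), past it downward and none upward (4.69% and 4.64% of all genes). Endothelial-like cells had 1 nuclear member past it upward, Ndufa4 (0.66), and 1 downward, of 72, and 1 of 12 mitochondrial genes upward, mt-Nd4l (8.69% and 7.18% of all genes). T or NK cell-like cells had 1 of 37 nuclear members past it downward, Atp5f1 (-0.52), and none of 9 mitochondrial genes (3.54% of all genes upward and 8.75% downward).

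Both nuclear members past the mark in fibroblast-like cells are isoforms. Cox4i2, the hypoxia form of Cox4i1, had 213 counts in ENPP1CKO cells and 275 in control cells, equal to 12.999 and 26.6 CPM (log2 ratio -1.03, limits -1.30 to -0.77). Ndufa4l2, a relative of Ndufa4 known to be induced by hypoxia, was at 223 and 343 CPM (-0.62, -0.69 to -0.55). Clusters 0 and 2 held most ENPP1CKO fibroblast-like cells, and Cox4i2 was lower in both, 15.2 against 40.8 CPM (-1.42, -1.82 to -1.01) and 11.4 against 32.2 CPM (-1.50, -1.93 to -1.07). Ndufa4l2 was at -0.70 in each. In cluster 3, with 179 and 424 cells, the Cox4i2 ratio was -0.31 with limits from -1.49 to 0.74. Macrophage-like cells, which should lack Cox4i2, had 0.880 and 1.18 CPM of it from 6 and 10 counts, at median depths of 3239 and 3220 counts per cell.

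Cox4i2 was most abundant in smooth muscle or pericyte-like cells, 722 CPM against 376 CPM in control (0.94, 0.641 to 1.2501), opposite in direction to fibroblast-like cells. Ndufa4l2 there was at 1336 and 1300 CPM (0.04, -0.14 to 0.22). Cox6b2, whose counts were few in cultured CFs, had a log2 ratio of 0.34 in fibroblast-like cells. The light strand gene mt-Nd6 reached 11.7 and 8.99 CPM there (0.38, 0.02 to 0.76), with under 200 counts in each of the other classes.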

How the data were processed

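RNA-seq of 20 CF and 15 NRVM libraries and 2 single-cell libraries was analysed. Raw counts per gene and UMI counts per cell were used as the authors deposited them. Per the labels, reads were processed with STAR 2.5.3a and Cell Ranger and the builds mm10 and rn6. The counting tool, annotation and strand setting are not given in the sources used here. The members and lists were chosen with earlier results of these data known.

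Bulk counts were filtered for low expression, scaled by TMM and fitted per culture over all groups with edgeR 4.0.16 (R 4.3.3). The quasi-likelihood test was used with Benjamini-Hochberg adjustment over all genes and a threshold of 0.05. SE is the standard error of the log2 fold change. The scripts were tested on simulated data. Alternatives were library totals without TMM, no filter, at least 50 counts in the median library, DESeq2 1.42.0, a replicate block and leaving out each library. Replicates within each group differed by a chi-square per gene of 2.46 to 36.5, beyond sampling noise, and libraries of different groups were not compared in this way.

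Barcodes needed 200 or more genes and were clustered in scanpy 1.11.5 (Leiden resolution 0.5) without the members. Doublets and barcodes with more than 20% mitochondrial counts were still included in the clustering. Both were left out afterwards, before values were summed, with doublets as called by Scrublet (144 ENPP1CKO and 72 control). Alternatives were other mitochondrial limits, resolution 1.0, CPM without mitochondrial counts, and thinning to 1000 counts, which left out cells with fewer. A cluster led by mesothelial genes was left unnamed by a rule added after the clusters were seen. Intervals are exact 95% limits and cover counting error only.

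Genes were named by rule. It took the 13 mitochondrial genes, the isoform groups of Cox4i, Cox6a, Cox6b, Cox7a, Cox8, Ndufa4 and Atp5g, and up to 2 largest rises and 2 largest falls per complex and main comparison among called members with a mean log2 CPM of 2 or more. For single cells it took the 2 highest and 2 lowest ratios per class among members with 200 counts. Of the other lists it took up to 3 by size and a fixed set of regulators and electron carriers. Members of the interaction, of the ATP comparisons and Sdhc in NRVMs were named after their values were seen. The values of 1 nuclear member are not reported here.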

Additional observations from a re-analysis of the deposited data

Results flagged for a closer look

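The response of CFs differed between 24 h and 48 h by the edgeR interaction test for 22 nuclear and 5 mitochondrial members with ENPP1+ATP MCndM, and for 29 nuclear and 4 mitochondrial members with AMP MCndM. Among all genes 30% and 31.7% were called in these interactions, so the nuclear totals lie near the background. The mitochondrial calls were 38.5% of the 13 genes with ENPP1+ATP and 30.8% with AMP, the latter also near the background. With library totals they came to 3 and 1 calls. The nuclear set moved in opposite directions in the cultures after 24 h of ENPP1+ATP. Its share of counts differed from vehicle by -0.0259 percentage points in CFs, where both treated libraries lay below both vehicle libraries, and by 0.432 percentage points in NRVMs, where each of the 3 treated libraries lay above each vehicle library. In CFs given ENPP1 alone for 24 h, both libraries (0.643% and 0.651%) also lay below both vehicle libraries (0.656% and 0.665%). The difference between the cultures was not tested, and they differ in species and cell type.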

How the results depend on the processing

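No named member changed direction under any alternative run. Results of named members were weaker in 77 and stronger in 12 of 1042 leave-one-out cases. With the other alternatives they were weaker in 25 and stronger in 20 of 1497. Leaving out a library, counts of members stayed within 1.5 times of the reported count in 156 of 180 cases, and with the other alternatives in 223 of 236. That comparison used total calls only, so a shift between rises and falls was not counted. Without TMM factors such shifts occurred in results given above. Among them were the ENPP1+ATP interaction and AMP at 48 h in CFs, and ENPP1+ATP against ATP in NRVMs. Of single-cell ratios, 65 of 84 moved by less than their counting limits. The cause of the changes below was not tested.

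With library totals in place of TMM, the calls came to 4 nuclear members for CF ATP at 24 h, 1 for CF ATP at 48 h and 14 for the AMP interaction between times, and to 3 mitochondrial members for the ENPP1+ATP interaction and 1 for the AMP interaction. Without a filter on low counts, 8 mitochondrial members were called for ATP at 24 h, 10 for the ENPP1+ATP interaction and 9 for the AMP interaction, 1 nuclear member for ENPP1 at 24 h, and 1 nuclear and 1 mitochondrial member for vehicle at 48 h against 24 h. ATP at 24 h had 4 nuclear calls with at least 50 counts in the median library and 5 with DESeq2. No share of all genes is given for these alternatives.

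Leaving out 1 library at a time, mitochondrial calls ranged from 5 to 9 for ENPP1+ATP at 24 h, 3 to 8 for AMP at 24 h, 1 to 2 for ATP at 24 h, 3 to 7 for the ENPP1+ATP interaction and 2 to 7 for the AMP interaction. Nuclear calls ranged from 0 to 3 for ATP at 24 h, 1 to 1 for ATP at 48 h, 31 to 51 for ENPP1+ATP against ATP at 24 h, 12 to 20 for the ENPP1+ATP interaction, and 9 to 14 for ENPP1+ATP against ATP in NRVMs.

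With the replicate number as a block, ENPP1+ATP at 24 h gave 43 nuclear calls in CFs and 53 in NRVMs, AMP 40 and 62, and the interactions 24 and 30. Correlations of same-numbered libraries ran from -0.25 to 0.45 in CFs and from -0.067 to 0.21 in NRVMs, so the numbers were not taken to pair libraries.

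For single cells, the mitochondrial ratio without a limit on mitochondrial counts was 0.052 in fibroblast-like, 0.70 in smooth muscle or pericyte-like and 0.86 in neutrophil-like cells. With a limit of 10% it was 0.089 in fibroblast-like, 0.35 in macrophage-like, 0.66 in smooth muscle or pericyte-like and -0.76 in B cell-like cells. At resolution 1.0 it was 0.70 in smooth muscle or pericyte-like cells. With CPM outside the mitochondrial genes, macrophage-like cells gave -0.037 (nuclear) and 0.39 (mitochondrial). Thinned to 1000 counts, which left out 504 ENPP1CKO and 423 control cells, the nuclear ratio in fibroblast-like cells turned to 0.012. The mitochondrial ratio was then 0.016 in fibroblast-like, 0.35 in macrophage-like, 0.24 in endothelial-like and 0.62 in smooth muscle or pericyte-like cells. B cell-like cells gave -0.24 (nuclear) and -0.47 (mitochondrial), and neutrophil-like cells -0.61 and 0.67, where all counts had given 0.02 and 1.09.

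Limits are the 2 libraries per CF group, 1 library per genotype in single cells, and CF counts of the 6 mitochondrial genes that were uncertain.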
